A study of Homo sapiens with 6 samples.

Results

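The genes of prostaglandin synthesis, breakdown, uptake and reception were followed in OE33 cells, a human line of esophageal adenocarcinoma. The members are the 10 genes whose name in the count table was *PLA2G4A*, *PTGS1*, *PTGS2*, *PTGES*, *PTGES2*, *PTGES3*, *HPGD*, *SLCO2A1*, *PTGER2* or *PTGER4*, of 58735 genes in all, and each name matched 1 row. Polyadenylated RNA was measured in 3 untreated control libraries and in 3 libraries from cells given acidified bile salts (ABS), described as independent biological replicates. The ABS cells had 20 min in unsupplemented medium at pH 4.0 with 200 µM bile salts and then 6 h in complete medium, and control cells were untreated. All 6 libraries came from this 1 line grown in RPMI1640 with serum. No group was labelled as given acid, bile salts or the exposure medium alone, so the parts of the exposure cannot be told apart, and the components of the bile salt mixture were not named.

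Prostaglandins are lipid mediators made from arachidonic acid, which cytosolic phospholipase A2 (*PLA2G4A*) releases from membranes. The cyclooxygenases COX-1 (*PTGS1*) and COX-2 (*PTGS2*) turn it into prostaglandin H2, and prostaglandin E synthases (*PTGES*, *PTGES2*, *PTGES3*) turn that into prostaglandin E2. The signal passes through the EP2 and EP4 receptors (*PTGER2*, *PTGER4*), and ends when the transporter encoded by *SLCO2A1* takes prostaglandins up and 15-hydroxyprostaglandin dehydrogenase (*HPGD*) oxidises them. *PTGS1* is generally a constitutive gene and *PTGS2* an inducible one, and COX-2 is known to be raised in Barrett's esophagus and esophageal adenocarcinoma.

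The sequences around *PTGS2* are shown first because its log2 fold change was the largest among the 7 members with enough counts to be tested. The promoter of *PTGES*, which encodes the synthase usually coupled to COX-2, is shown beside them. Neither gene passed the edgeR test at 0.05, at adjusted p of 0.0551 for *PTGS2* and 0.973 for *PTGES*. Both promoter stretches are the 250 bases before the RefSeq start in GRCh38.p14, on the minus strand, at chr1:186680424-186680673 for *PTGS2* and chr9:129753043-129753292 for *PTGES*, and capitals mark the letters of every motif searched.
PTGS2: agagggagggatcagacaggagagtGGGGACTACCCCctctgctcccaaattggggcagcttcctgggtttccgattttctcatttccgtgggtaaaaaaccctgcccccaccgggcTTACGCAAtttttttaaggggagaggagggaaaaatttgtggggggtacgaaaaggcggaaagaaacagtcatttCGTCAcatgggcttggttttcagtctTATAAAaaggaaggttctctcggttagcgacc
PTGES: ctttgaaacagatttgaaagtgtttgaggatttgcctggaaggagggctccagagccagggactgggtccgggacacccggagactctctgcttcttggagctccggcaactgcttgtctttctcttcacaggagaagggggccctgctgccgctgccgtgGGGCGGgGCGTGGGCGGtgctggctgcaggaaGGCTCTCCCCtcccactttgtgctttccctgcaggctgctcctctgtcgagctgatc
The motifs were searched on both strands, and matches may overlap. In the *PTGS2* stretch, a loose NF-kB pattern (3 G, any 5 bases, 2 C) matched 4 times in overlapping frames that begin at positions -225 to -223 from the start. The C/EBP pattern TTNNGNAA matched at -133, on both strands of the same letters, the cyclic AMP response element half-site TGACG on the minus strand at -58, and TATAAA at -32. The AP-1 pattern TGANTCA, the GC box GGGCGG, the aryl hydrocarbon receptor core GCGTG and the E-box CACGTG had 0 matches there. In the *PTGES* stretch, GGGCGG matched at -89 and -78, GCGTG at -82 and the NF-kB pattern on the minus strand at -57, and the other 5 patterns had 0 matches. These patterns are common: of 35116 promoter stretches of the same length, 54.4% held the NF-kB pattern, 42.6% GGGCGG, 33.2% TTNNGNAA, 32.2% GCGTG, 21.2% TGACG, 10.7% TATAAA, 6.57% TGANTCA and 6.34% CACGTG. Promoter stretches were found for 9 of the 10 members.

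The 3′ untranslated region of *PTGS2* is shown because AUUUA pentamers there are known to bind proteins that destroy or stabilise the mRNA. In GENCODE release 29 (GRCh38) it lies in exon 10, at chr1:186671791-186674352 on the minus strand, and holds 22 ATTTA pentamers in 2562 bases. Of 11790 tested genes with a coding transcript, 2.64% had at least as many and 1.33% had them at least as densely, against a median of 2 pentamers. The first 30 bases after the stop codon, at chr1:186674323-186674352, already hold 3 overlapping pentamers, in capitals. These bases begin the 3′ untranslated region and are not the end of the transcript.
PTGS2 3′ end: aagtctaatgatcatATTTATTTATTTAta
Per kilobase of this region, *PTGS2* had 8.59 pentamers, *PLA2G4A* 8.46, *PTGER4* 6.63, *PTGES3* 5.28, *HPGD* 2.62, *PTGES* 0.781 and *PTGES2* 0. The median over tested genes with a coding transcript was 1.66, and 32.6% of them were at least as dense as *HPGD*. The *PLA2G4A* value rested on 4 pentamers in 473 bases, and 39.2% of tested genes had at least as many. The counts are a description of sequence and say nothing of mRNA stability in these cells.

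Depth ran from 22145676 to 25235686 counts per library, and 13768 genes passed the filter on low counts. In both groups replicate 3 differed from replicates 1 and 2. Chi-square per degree of freedom, taken over genes for pairs of libraries, was 4.79 for replicates 1 and 2 of either group and 6.79 for the replicate 3 pair, against 13.7 to 19.1 for every other pair. Where the call of a named gene moved with these libraries, a value without 1 or both of them is given. Epithelial markers summed to 17272 to 20152 CPM (scaled counts per 1e+06) in control and 18098 to 18985 CPM in ABS libraries. Of the fibroblast list, *COL1A2* and *DCN* were at 0 in all libraries, of the immune list *PTPRC*, *CD3E* and *MS4A1*, and of the mast cell list all 4. The summed level was 2.82 to 3.10 CPM in control and 2.67 to 4.02 CPM in ABS libraries for the 5 fibroblast markers, carried by *COL1A1*, and 4.76 to 6.01 and 4.55 to 5.32 CPM for the 5 immune markers, carried by *CD14*. The 4 endothelial markers summed to at most 0.0455 CPM in control and 0.275 CPM in ABS libraries.

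Of the 10 members, 7 passed the filter on low counts and could be tested. *PTGS2* was 2.26-fold higher on average after ABS, and the other 6 had fold changes between 0.972 and 1.23. None of the 7 passed edgeR's quasi-likelihood test after adjustment over all genes at 0.05, where 0.436% of all tested genes passed (0.37% higher and 0.0654% lower). At an unadjusted p under 0.05 there was 1, *PTGS2*, where 9.75% of all tested genes passed. With DESeq2 0 of the members passed (2.08% of all genes did), and with limma-voom *PTGS2* alone did (adjusted p = 0.0479, 0.45% of all genes). *PTGS2* was also the member whose ABS libraries did not overlap the control libraries, which was so in 14.5% of tested genes (7.57% higher and 6.95% lower after ABS). The median log2 fold change of the 7 was 0.03, against -0.00369 over all tested genes. In bulk RNA, fewer cells with a transcript and less of it per cell cannot be told apart.

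**Figure D1:**
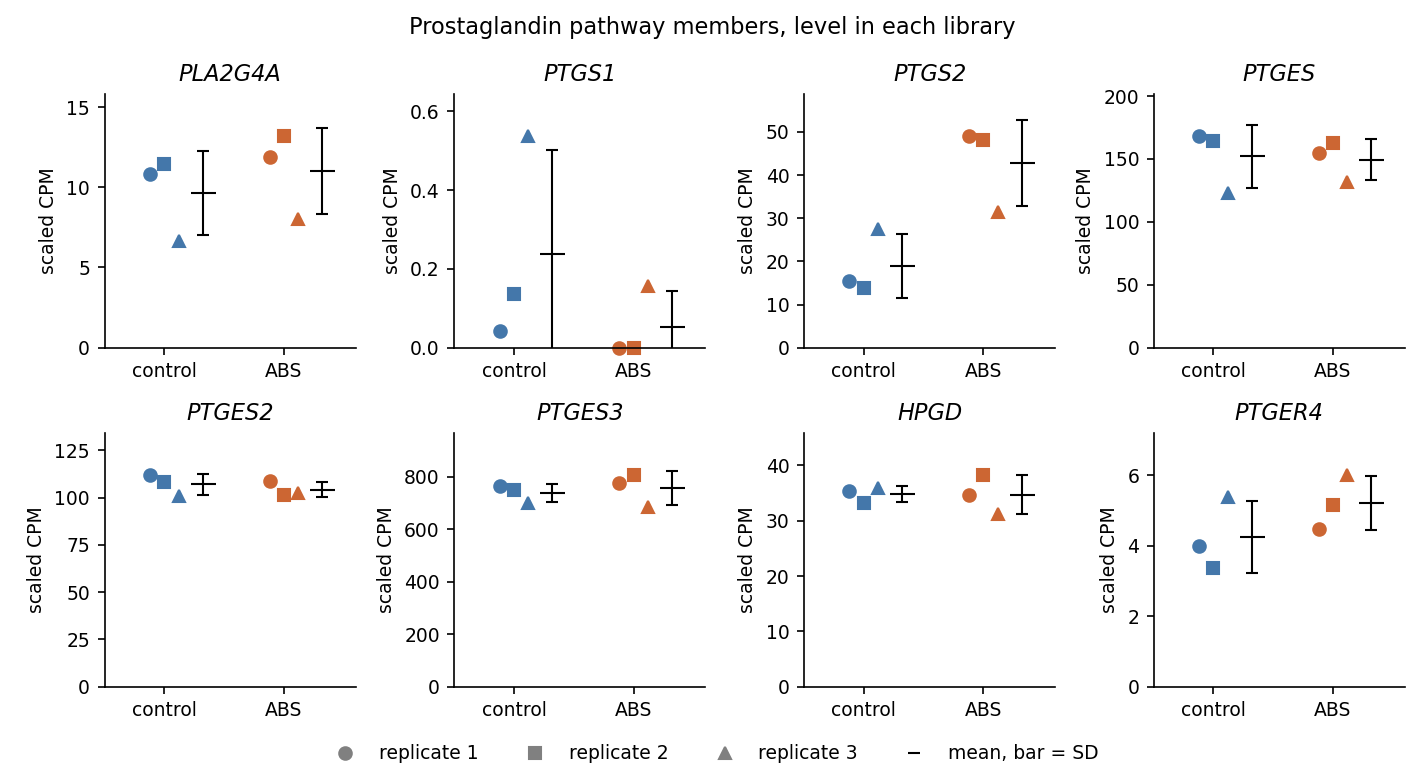
TMM-scaled CPM of 8 members in each library, with control in blue, ABS in orange, a symbol for each replicate number, and the mean ± SD (n = 3) in black, cut at 0 for *PTGS1*. In *PTGS2* the ABS libraries lie above the control libraries, with the replicate 3 libraries closest to each other. The other tested members overlap between groups.

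*PLA2G4A* (ENSG00000116711, chromosome 1, 186828953 to 186988981), at the head of the pathway, lay at 10.8, 11.5 and 6.66 CPM in control replicates 1, 2 and 3. In ABS replicates 1, 2 and 3 it lay at 11.9, 13.2 and 8.05 CPM. The replicate 3 library was the lowest of each group, and the groups overlapped. The log2 fold change, 0.19 ± 0.22 (SE), had a 95% interval of -0.29 to 0.68 and an adjusted p of 0.851 in edgeR. Without control replicate 3 the log2 fold change was -0.02.

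Transcripts of the COX-1 gene were nearly absent from these libraries. *PTGS1* (ENSG00000095303, chromosome 9, 122370530 to 122395703) had 1, 3 and 13 counts in control replicates 1, 2 and 3 and 0, 0 and 4 after ABS. Both replicate 3 libraries were the highest of their group. The pooled counts were 17 in control and 4 after ABS, a ratio of control to ABS of 4.46 after scaling (95% exact binomial interval 1.46 to 18.2). That interval covers counting error alone, and 13 of the 17 control counts came from 1 library. The gene was below the filter, and without a filter its edgeR adjusted p was 0.766.

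*PTGS2* (ENSG00000073756, chromosome 1, 186671791 to 186680427), the inducible cyclooxygenase gene, lay at 15.4, 13.8 and 27.5 CPM in control replicates 1, 2 and 3. After ABS it lay at 49.1, 48.0 and 31.4 CPM. Control replicate 3 was the highest control library and ABS replicate 3 the lowest ABS library, and the groups did not overlap. Control libraries averaged 18.9 ± 7.45 CPM and ABS libraries 42.8 ± 9.93 CPM (SD, n = 3 per group), from raw counts of 304 to 664 and 800 to 1217. This was a log2 fold change of 1.18 ± 0.23 (SE), with a 95% interval of 0.67 to 1.68, and it missed the edgeR threshold at an adjusted p of 0.0551.

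The size of the *PTGS2* difference depended on the replicate. Within replicates 1 and 2 it was 3.32-fold (log2 1.73, edgeR adjusted p = 1.53e-13), in a fit where 13.2% of all genes passed. Within the replicate 3 pair, 1 library per group, it was 1.14-fold (log2 0.19). The contrast between them was tested as an interaction of treatment with replicate 3. It was -1.54 ± 0.18 (SE) on the log2 scale with an edgeR adjusted p of 4.97e-07, in a test that 2.38% of all genes passed. This test takes the lone replicate 3 libraries to vary as much as the others, and the split was chosen with these libraries known to stand apart. Of the other 6 tested members, 0 passed the interaction test with edgeR, and 0 had an unadjusted p under 0.05.

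*PTGS2* had a positive log2 fold change in all 16 alternative settings, from 1.00 to 1.73, and passed the threshold in 7 of them. Leaving out control replicate 3, in a fit that 3.1% of all genes passed, gave 1.55 (edgeR adjusted p = 2e-04). Leaving out ABS replicate 3, in a fit that 1.94% passed, gave 1.36 (0.00892). Leaving out any of the other 4 libraries gave 1.00 to 1.09, with adjusted p of 0.238 to 0.298. A term for the replicate 3 libraries, in a fit that 3.38% of all genes passed, gave an adjusted p of 0.00454, and a block on replicate number, in a fit that 2.54% passed, gave 0.00432. With all 6 libraries and no added term it also passed without the filter on low counts (5.6e-21) and with limma-voom (0.0479). The fit without a filter, which 1.64% of all genes passed, gave a log2 fold change of 1.18 with an SE of 0.12, against 0.23 as reported. *PTGS2* did not pass with robust dispersion (0.254), library-size scaling alone (0.0999), DESeq2 (0.074), a 1 CPM filter (0.0592) or RLE scaling (0.0521). The call thus moved with the replicate 3 libraries and with the filter and tool, while the direction did not.

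**Figure D2:**
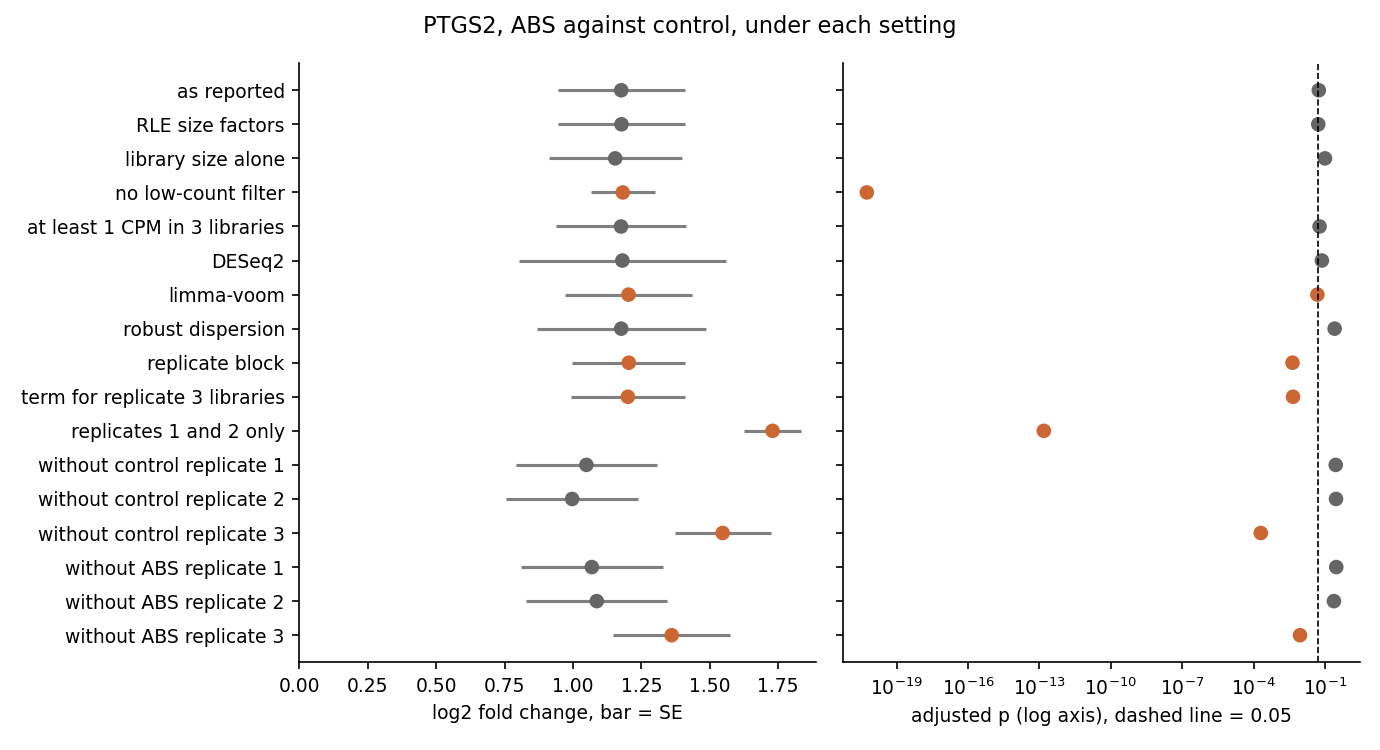
*PTGS2* under the reported fit and 16 alternatives, with the log2 fold change of ABS over control and its SE on the left and the adjusted p on a log axis on the right. Orange points passed 0.05. The fold change lies between 1.00 and 1.73 throughout, and the settings without a replicate 3 library passed.

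The read counts of *PTGS2* had no overlapping gene to share with. *PACERR*, a non-coding RNA gene on the opposite strand beside its start, had 0 counts in all 6 libraries, which allows up to 0.137 CPM in the shallowest one.

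The 3 prostaglandin E synthase genes were the most abundant members, and 0 of them passed. *PTGES* (ENSG00000148344, chromosome 9, 129738331 to 129753047), the membrane-bound inducible synthase, lay at 168, 165 and 123 CPM in control replicates 1, 2 and 3 and at 155, 162 and 131 CPM after ABS. The replicate 3 library was the lowest in each group and the groups overlapped. The log2 fold change, -0.02 ± 0.12 (SE), had a 95% interval of -0.28 to 0.23 and an adjusted p of 0.973 in edgeR. Its sign turned when control replicate 1 (0.0569), control replicate 2 (0.0376) or ABS replicate 3 (0.064) was left out.

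*PTGES2* (ENSG00000148334, chromosome 9, 128120693 to 128128462), a second membrane-associated synthase, lay at 112, 108 and 101 CPM in control and 109, 101 and 102 CPM in ABS libraries. The ranges were nearly the same, and the log2 fold change was -0.04, with a 95% interval of -0.20 to 0.12. *PTGES3* (ENSG00000110958, chromosome 12, 56663341 to 56688408), whose product p23 is a cytosolic synthase and also a co-chaperone of HSP90, lay at 764, 750 and 701 CPM in control and 778, 807 and 683 CPM in ABS libraries. Its interval was -0.13 to 0.20 around 0.03. Its processed pseudogenes share its sequence, and *PTGES3P1* had 5.06 to 6.37 CPM in the 6 libraries, so reads could have been split between them.

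*HPGD* (ENSG00000164120, chromosome 4, 174490177 to 174523154), which starts the breakdown of prostaglandins, lay at 35.4, 33.3 and 36.0 CPM in control replicates 1, 2 and 3. After ABS it lay at 34.7, 38.3 and 31.2 CPM, within and around the control range. The log2 fold change, -0.01 ± 0.10 (SE), had a 95% interval of -0.22 to 0.21 and an adjusted p of 0.991 in edgeR. Within replicates 1 and 2 it was 0.09, and in the replicate 3 pair -0.21.

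The uptake transporter gene *SLCO2A1* had 0 counts in every control library and 3, 0 and 1 in ABS replicates 1, 2 and 3. At this depth 0 counts allow up to 0.0431 CPM over the control group, for counting error only, and no change was detectable. The EP2 receptor gene *PTGER2* had 0 counts in all 6 libraries.

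*PTGER4* (ENSG00000171522, chromosome 5, 40679498 to 40693735), which encodes the EP4 receptor, was the expressed receptor of the pair. It lay at 4.0, 3.37 and 5.38 CPM in control replicates 1, 2 and 3 and at 4.48, 5.16 and 6.00 CPM after ABS. The replicate 3 library was the highest in each group, and the groups overlapped. The log2 fold change, 0.29 ± 0.22 (SE), had a 95% interval of -0.19 to 0.78 and an adjusted p of 0.744 in edgeR. It was positive in all 16 alternatives, from 0.15 to 0.50, and passed in 0. *TTC33* overlaps it on the other strand, with 6.25 to 7.10 CPM, and the strand setting of the counting was not given in the sources used here.

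**Figure D3:**
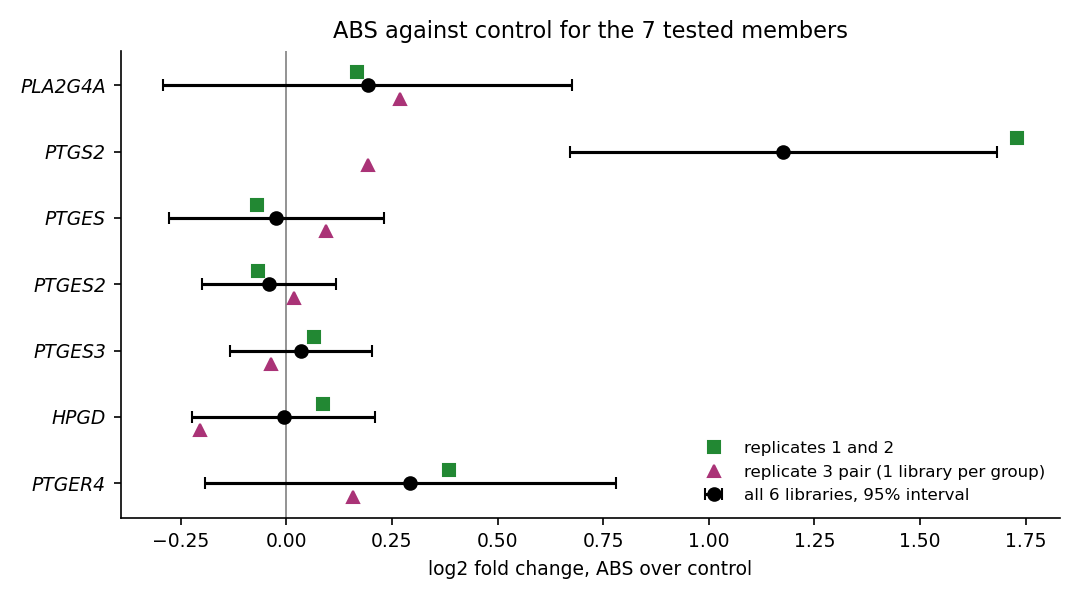
Log2 fold change of ABS over control for the 7 tested members, with the 95% interval over all 6 libraries in black, replicates 1 and 2 as green squares and the replicate 3 pair as purple triangles. The interval of *PTGS2*, 0.67 to 1.68, lies above 0 and those of the other 6 include 0. *PTGS2* is also the member with the widest gap between squares and triangles.

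Levels were compared between genes as scaled CPM divided by the gene length in kilobases. In control cells the order of mean levels was *PTGES3* (217), *PTGES* (80.2), *PTGES2* (35.2), *HPGD* (6.31), *PTGS2* (3.59), *PLA2G4A* (3.36) and *PTGER4* (1.07). After ABS the means were 222, 78.9, 34.3, 6.28, 8.13, 3.84 and 1.32 in the same order of genes, which put *PTGS2* above *HPGD*. In control libraries *PTGS2* (2.63 to 5.21) overlapped *PLA2G4A* (2.32 to 3.99), and in ABS libraries *PTGS2* (5.96 to 9.32) overlapped *HPGD* (5.64 to 6.93). The other neighbours in both orders did not overlap. *PTGS1*, at 0.0413 in control and 0.00904 after ABS, was far below all of these.

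**Figure D4:**
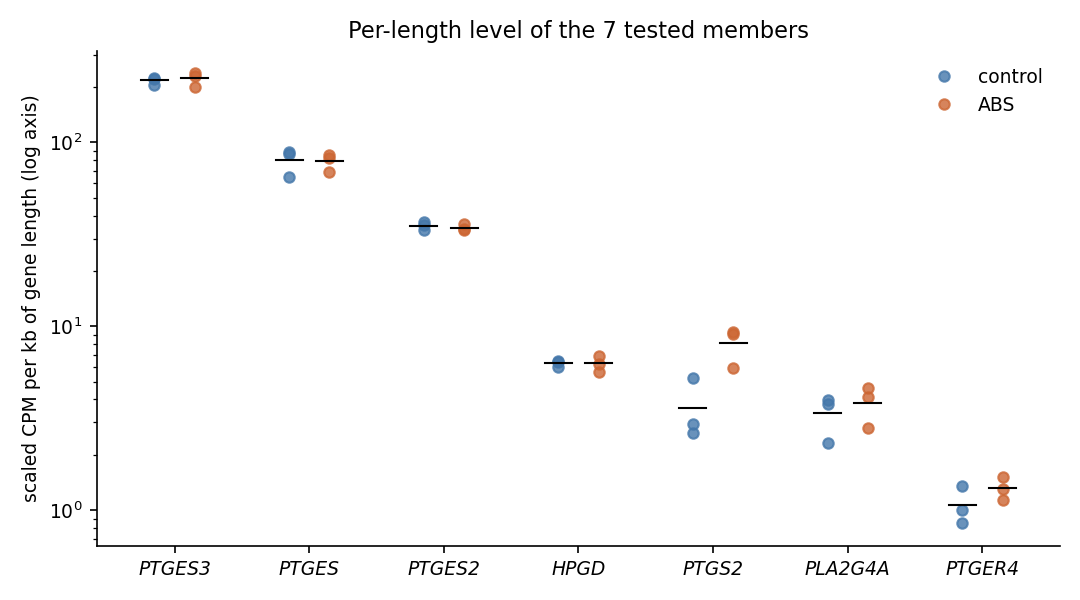
Scaled CPM per kilobase of gene length on a log axis for the 7 tested members, with 1 point per library and a line at each group mean. The 3 synthase genes lie between 33.3 and 237, whereas *PTGS2* lies between 2.63 and 9.32.

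On this per-length scale the ratio of *PTGS2*, the synthesis gene, to *HPGD*, the breakdown gene, was 0.458, 0.436 and 0.801 in control replicates 1, 2 and 3. After ABS it was 1.48, 1.32 and 1.06, above 1 in each library, and the groups did not overlap. The means were 0.565 ± 0.205 and 1.29 ± 0.216 (SD, n = 3 per group). *PTGS2* made up 98.2% to 99.8% of the 2 cyclooxygenase genes' per-length level in control libraries and 99.5% to 100% in ABS libraries. *PTGES* stayed well above *PTGS2*, whose level was 0.0479 ± 0.0282 of it in control and 0.102 ± 0.0145 of it in ABS libraries. These ratios are descriptions, and gene lengths are those of the deposited table. Which transcripts were expressed was not measured, so the side of 1 and the order of genes depend on these lengths. Before division by length, ABS replicate 3 had 31.4 CPM for *PTGS2* and 31.2 CPM for *HPGD*.

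The genes whose log2 CPM followed *PTGS2* most closely over the 6 libraries, among 9716 protein-coding genes with at least 5 CPM, were *RNF19B* (Pearson r = 0.999), *SH3RF1* (0.997), *RND3* (0.997), *OCLN* (0.996) and *RBM22* (0.994). The 6 libraries share both the treatment groups and the replicate 3 pair, so these are descriptions and carry no test. *RNF19B* lay at 24.1, 22.7 and 29.2 CPM in control and 35.9, 35.7 and 30.1 CPM in ABS libraries. Their log2 fold changes were smaller than that of *PTGS2*, from 0.39 for *RBM22* to 0.45 for *OCLN*, and 0 of the 5 passed the edgeR threshold, at adjusted p of 0.0996 to 0.173. Each had an unadjusted p below 0.05. DESeq2 called 4 of them, all but *RNF19B*, and limma-voom 0. Choosing them by likeness to *PTGS2* over these same libraries fixes their direction and favours low p-values. Their p-values and calls are thus no independent evidence. Without control replicate 3, in a fit that 3.1% of all genes passed, all 5 passed in edgeR, at 0.49 for *RBM22* to 0.59 for *RND3* and *OCLN*. Without ABS replicate 3, in a fit that 1.94% of all genes passed, all but *RNF19B* did.

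Around the members, 83 further symbols of eicosanoid synthesis, breakdown, reception and signalling were listed by function. Of these, 80 were in the table and 59 were tested. The rest, *FAM213B*, *PTGR3* and *PLAAT3*, are second names of listed genes that were in the table as *PRXL2B*, *ZADH2* and *PLA2G16*. With edgeR, DESeq2 and limma-voom 0 of the 59 passed, and 5 had an unadjusted p under 0.05, or 8.47% against 9.75% of all tested genes. Their median log2 fold change was 0.02.

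Genes that turn prostaglandin H2 or E2 into other products did not pass the test. All 6 tested had negative log2 fold changes, from -0.18 to -0.06 with a median of -0.12, as had 7023 of all 13768 tested genes. Of the 6, 0 had an unadjusted p under 0.05 and 0 passed with edgeR, DESeq2 or limma-voom. *AKR1B1*, an aldo-keto reductase with prostaglandin F synthase activity, lay at 154, 149 and 155 CPM in control and 135, 133 and 152 CPM in ABS libraries (log2 -0.13, edgeR adjusted p = 0.627). *PRXL2B*, another prostaglandin F synthase, had -0.17 (0.632). Within replicates 1 and 2 alone, in a fit that 13.2% of all genes passed, *AKR1B1* passed at -0.18 (0.025) and *PRXL2B* at -0.26 (0.05 after rounding). The prostacyclin synthase gene *PTGIS* had 0 counts in control libraries and *PTGDS* and *HPGDS*, the prostaglandin D synthase genes, 0 in all.

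Of the breakdown and efflux genes, 4 of 4 were tested, all with positive log2 fold changes, as had 6745 of all 13768 tested genes. Of the 4, 0 had an unadjusted p under 0.05 and 0 were past the threshold. *PTGR1* and *PTGR2*, which reduce 15-keto-prostaglandins, had 0.12 (edgeR adjusted p = 0.897) and 0.66 (0.72). *PTGR2* overlaps *ZNF410* on the same strand and lay between 0.510 and 1.18 CPM. Among the 7 other prostanoid receptor genes, *PTGER3*, *PTGFR* and *PTGDR* had 0 counts in every library, and only *PTGER1* (0.03, 0.993) was tested. The thromboxane receptor gene *TBXA2R*, named after its values were seen, had 7, 6 and 10 counts in control replicates 1, 2 and 3 and 1, 1 and 2 after ABS. The groups did not overlap, and the ratio of control to ABS was 6.04 after scaling (95% exact binomial interval 2.06 to 24.0, counting error only). It was below the filter, and without one its edgeR adjusted p was 0.705.

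Arachidonate-releasing and remodelling genes were near their control level, with 16 tested, log2 fold changes from -0.15 to 0.24 and 0 at an unadjusted p under 0.05. *PLAA*, an activator of phospholipase A2, had 0.13 and *ANXA1*, which encodes an inhibitor of it, 0.10, both with an edgeR adjusted p of 0.714. In the lipoxygenase branch 8 genes were tested. *LTB4R*, a leukotriene B4 receptor gene, lay at 1.02, 0.865 and 0.993 CPM in control and 2.02, 1.44 and 2.0 CPM in ABS libraries. The groups did not overlap, but its log2 fold change of 0.92 missed the edgeR threshold (adjusted p = 0.377), and *LTB4R2* overlaps it on the same strand. *CYP4F3*, which inactivates leukotriene B4, had -0.46 (0.781).

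Downstream of EP2 and EP4, 15 genes of cyclic AMP signalling were tested and 0 passed. The early-response genes *NR4A2* and *NR4A1*, which are induced by cyclic AMP and by many other stimuli, had log2 fold changes of 0.81 (edgeR adjusted p = 0.348) and 0.86 (0.621). *NR4A2* lay at 3.15, 1.82 and 5.05 CPM in control and 6.49, 5.68 and 5.42 CPM in ABS libraries, and *NR4A1* at 1.49, 0.637 and 4.38 and at 3.95, 3.45 and 4.47 CPM. As in *PTGS2*, control replicate 3 was the highest control library. Without it, in a fit that 3.1% of all genes passed, *NR4A2* passed at 1.23 (0.0251) and *NR4A1* at 1.88 (0.0142). Over the fits that each left out 1 library, the edgeR adjusted p reached 0.866 for *NR4A2* and 0.982 for *NR4A1*. *PDE4B*, a cyclic AMP phosphodiesterase gene, had the lowest value of the list, -0.59 (0.671).

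Among 9 tested genes of *PTGS2* mRNA decay and translation, 3 had an unadjusted p under 0.05, or 33.3% against 9.75% of all tested genes, and 0 passed. Those 3 were *ZFP36*, *ZFP36L2* and *TNPO1*. Groups that did not overlap were seen in 3 of the 9, against 14.5% of all tested genes. These were *ZFP36*, *ZFP36L2* and *ELAVL1*, so the 2 counts share genes, and directions were mixed in both. *ZFP36L2*, which encodes a protein that binds AU-rich mRNA and promotes its decay, lay at 134, 129 and 104 CPM in control and 102, 102 and 89.6 CPM in ABS libraries. The groups did not overlap, and it had a log2 fold change of -0.32 ± 0.10 (SE) and an edgeR adjusted p of 0.227. It passed in 5 of 16 alternatives, a replicate block among them (-0.31, edgeR adjusted p = 0.0221). Over the fits that each left out 1 library, its edgeR adjusted p reached 0.768. Without control replicate 3, in a fit that 3.1% of all genes passed, *ZFP36L2* passed at -0.42 (0.0112). Its relative *ZFP36* pointed the other way, from 30.3, 35.6 and 42.9 CPM in control to 45.5, 43.1 and 47.2 CPM after ABS, without overlap (0.32, adjusted p = 0.345). Within replicates 1 and 2 alone, in a fit that 13.2% of all genes passed, *ZFP36* passed in edgeR at 0.43 (adjusted p = 0.00286). *TNPO1*, which encodes transportin 1, an importer that carries RNA-binding proteins such as HuR into the nucleus, had 0.28 (0.233). It passed without control replicate 3 at 0.35 (0.0454) and without ABS replicate 3 at 0.37 (0.032). Of all genes, 3.1% and 1.94% passed in these fits. Over the fits that each left out 1 library, the edgeR adjusted p of *TNPO1* reached 0.789. *ELAVL1*, which encodes HuR, a stabiliser of AU-rich mRNA, had -0.06 (0.858), with groups that did not overlap.

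**Figure D5:**
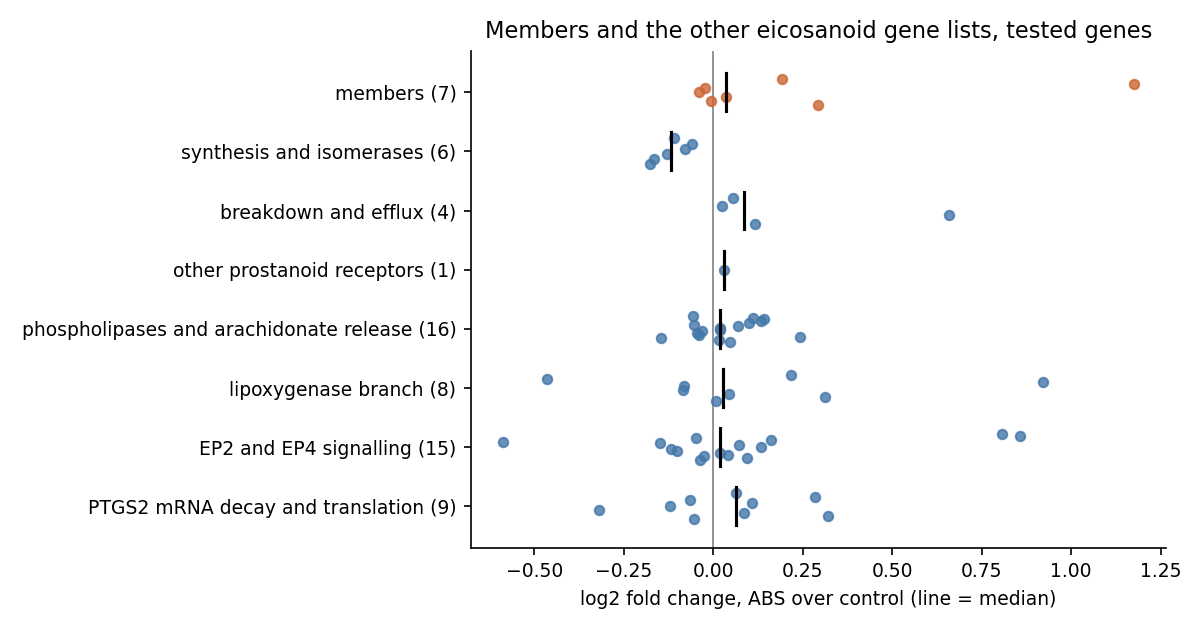
Log2 fold change of ABS over control for each tested gene of the members and of 7 lists, with the number of tested genes in brackets and a line at the median. *PTGS2*, at 1.18, is the highest point, and the list medians lie between -0.12 and 0.09.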

How the data were processed

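Raw gene counts for the 6 libraries, not normalized, were taken from the deposited table, which also gives gene lengths and positions. Per the submitters' processing notes, HISAT2 2.0.5, featureCounts 1.5.0-p3 and GRCh38 were used by the authors. The annotation, strand setting and handling of multimapping reads are not given in the sources used here. The members and lists were chosen with earlier results of these data known.

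Genes were kept by filterByExpr (minimum count 10, minimum total 15), scaled by edgeR's TMM factors and tested with the edgeR 4.0.16 quasi-likelihood F-test in R 4.3.3, in a model of group alone. Benjamini-Hochberg adjustment covered all 13768 tested genes, with a threshold of 0.05. SE was the log2 fold change divided by the square root of F. Alternatives changed the scaling, the filter, the tool (DESeq2 1.42.0, limma-voom 3.58.1), the dispersion, the terms or the libraries. In simulated data, 46.3% of 67 genes changed 1.5-fold, 75.0% of 64 changed 2-fold and 98.5% of 66 changed 4-fold were recovered among 13531 tested, and 14 of 158 calls were false. The simulated libraries had no shift or treatment difference tied to replicate 3, so these rates need not hold for the real ones. The rule for naming took all members, the 2 tested genes of smallest p in each list and the 5 genes closest to *PTGS2*; *PDE4B*, *ELAVL1*, *ZFP36*, *TBXA2R* and genes at 0 counts were added after their values were seen. Promoters are from RefSeq (GRCh38.p14). The 3′ regions are those of the GENCODE 29 transcript with the longest one for each gene.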

Additional observations from a re-analysis of the deposited data

Results flagged for a closer look

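The ABS effect on *PTGS2* differed between the replicate 3 pair and replicates 1 and 2, by -1.54 ± 0.18 (SE) on the log2 scale in the edgeR interaction test (adjusted p = 4.97e-07). For *TNPO1* the interaction had the same sign and a smaller size, -0.45 ± 0.09 (adjusted p = 0.00128), where replicates 1 and 2 differed by 0.43 and the replicate 3 pair by -0.02. Both were noted because the effect under 1 contrast was not the same in both sets of libraries. They were not the only such genes, since 2.38% of all tested genes passed this interaction test. In the 5 genes most like *PTGS2*, the interaction ran from -0.48 for *SH3RF1* to -0.67 for *RND3* and *OCLN*. It was larger in size than for *TNPO1*, but *RNF19B*, at -0.57, did not pass. Choosing the 5 by likeness over these same libraries fixes the sign of their interaction, so they are no independent evidence. The replicate 3 set holds 1 library per group, and the split was made knowing that these libraries stood apart, so the p-values are not those of a split chosen independently. What set these libraries apart was not tested.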

How the results depend on the processing

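*PTGS2* kept its direction in all 16 alternatives and its side of the threshold in 9. It passed without a filter (1.18), with limma-voom (1.203), with a term for the replicate 3 libraries (1.201) and with replicates 1 and 2 alone (1.73). Over the fits that each left out 1 library it lay between 0.997 and 1.55. Its adjusted p ran from 5.6e-21 without a filter to 0.298 without ABS replicate 1. The number of members past the threshold was 1 in each of these 4 settings, and 0 to 1 with a library left out. Of the other listed pathway genes 3 passed without a filter, 2 with the replicate 3 term, 9 with replicates 1 and 2 alone, and 0 to 5 with a library left out. Among all genes, 60 passed as reported, 264 in DESeq2, 35 when scaled by library size only, 409 when unfiltered, 465 with the replicate 3 term, 1813 with replicates 1 and 2 alone and 12 to 438 with a library left out. The cause of these differences was not tested.

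Replicate numbers 1 and 2 were not shown to pair the libraries, since same-numbered libraries had correlations of deviations of 0.0425 and 0.0333. Control replicate 1 had a higher value with ABS replicate 2 (0.0934). For number 3 the value was 0.167, the highest of all, and the other control-ABS pairs with a replicate 3 library had -0.125 to -0.0581. What the 2 replicate 3 libraries shared was not labelled. With a replicate block *PTGS2* passed (1.204, edgeR adjusted p = 0.00432), 1 member and 1 other pathway gene, *ZFP36L2* (-0.31, 0.0221), passed, and 350 of all genes passed instead of 60. Of the 5 genes most like *PTGS2*, chosen over these same libraries, the block let *SH3RF1* (0.0175), *RND3* (0.0262), *OCLN* (0.0301) and *RBM22* (0.0408) pass, and the replicate 3 term all 5. Not every library correlated best with its own number.

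The interaction for *PTGS2* lay between -1.54 and -1.51 in 7 alternatives and passed in all 7. Signs turned for *HPGD* with replicates 1 and 2 alone (0.0878). With a library left out, ranges were -0.16 to 0.064 for *PTGES*, -0.0156 to 0.10 for *PTGES3*, -0.0823 to 0.0675 for *HPGD*, -0.0183 to 0.38 for *PLA2G4A* and -0.15 to 0.30 for *PTGER1*. For the 24 other named genes, 320 of 382 values kept sign and side of the threshold, 49 passed anew and 13 changed sign, and the cause was not tested. Over these settings the median of all genes moved by less than 0.1 on the log2 scale. Genes under the filter, *PTGS1*, *SLCO2A1* and *PTGER2* among the members, are limited by depth.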
